A study of Mus musculus with 6 samples.

Results

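Genes of the tumor necrosis factor (TNF) superfamily and of its receptors were followed in mouse liver tumors grown from cells given a plasmid for PD-L1 or its empty counterpart. The members were the measured immune genes whose symbol starts with Tnfsf or Tnfrsf, together with Tnf, Lta, Ltb, Ltbr, Fas, Fasl, Cd27, Cd70, Cd40 and Cd40lg. This gave 34 of the 750 immune-related genes of the panel, of which 16 were ligands and 18 receptors. The tumors grew in the left lobe of the liver, below its capsule, in male BALB/c mice aged 6 to 7 weeks, from the mouse liver cancer line BNL-MEA. One group of cells carried the PD-L1 plasmid (PD-L1 binds the inhibitory receptor PD-1 on T cells) and the other the plasmid without insert, and G418 had selected stable clones of each. RNA of the tumors was read by NanoString nCounter, an assay in which barcoded probes are counted molecule by molecule without amplification. Each group held 3 samples, and values are listed below in the order of their replicate numbers. Each plasmid has its own clones, so a clone difference cannot be told apart from the plasmid, and whether a group's samples came from separate mice is not stated in the labels, so the p-values measure only the spread between these samples.

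Ligands of the TNF superfamily are mostly trimeric proteins on the surface of immune cells, some of them shed, and each binds one or a few receptors of the matching receptor superfamily. Receptors with a death domain, such as Fas, can start apoptosis through adaptor proteins and caspases. Receptors without one recruit TRAF adaptors and switch on NF-kappaB and MAP kinase signalling. In tumors the family is known above all for costimulation of T cells, survival of B cells, formation of lymphoid tissue and killing of target cells.

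Recovered counts ran from 1051274 to 1920476 a sample, and the 8 negative control probes together held 72 to 109 counts. Values are given as log2 of the normalized count, on which 1 unit is a doubling. A gene was tested when its mean over the 6 samples reached the background limit of 4.66, set 2 SD over the negative controls' mean, which kept 541 of 750 genes. Cd274, the gene for PD-L1, stood at 6.17, 5.36 and 5.87 in tumors labelled PD-L1 and at 6.95, 5.32 and 7.43 in tumors labelled empty plasmid. The groups overlapped and the samples labelled PD-L1 were not the higher ones. The sources used here do not say where the Cd274 probe lies relative to the plasmid's insert, and GEO's free text mentions clones selected for PD-L1 in both groups, so the groups rest on the titles and are called by their labels. Hepatocyte markers varied between samples, and 18 of them averaged 6.34, 5.40 and 9.37 in tumors labelled PD-L1 and 8.31, 12.17 and 10.45 in tumors labelled empty plasmid.

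The comparison asked how transcripts of these ligands and receptors differed between tumors labelled PD-L1 and tumors labelled empty plasmid. The sharpest differences were a lower Tnfsf13b, the B cell survival factor BAFF, and a lower Tnfrsf1b, the TNF receptor TNFR2, beside a higher Tnfrsf9, the T cell costimulatory receptor 4-1BB, and a higher Tnfsf14, the lymphotoxin-related ligand LIGHT, in the tumors labelled PD-L1. Of these, Tnfsf14 reached the background limit only through the samples labelled PD-L1, so its place among the tested genes was not independent of its difference. All 4 genes had groups that did not overlap as deposited but overlapped when samples were scaled to the positive controls. None of them passed the test: limma gave 0 of 17 tested members an adjusted p under 0.05, where the share over all tested genes was 0.0%, and the smallest adjusted p of a member was 0.251. At an unadjusted p under 0.05 there were 4 of 17 members, against 17.0% of all tested genes. Of these 2 were higher in the tumors labelled PD-L1 and 2 lower, against 7.21% and 9.8% of all tested genes. Their unadjusted p-values ran from 0.0108 to 0.0372. The groups did not overlap for the same 4 of 17 members, against 18.3% of all tested genes (8.5% higher and 9.8% lower). Over all 34 members, tested or not, they did not overlap for 10, against 18.8% of the 750 genes. By sign alone 10 of the 17 tested members were lower, against 59.9% of all tested genes. The members' shares are set beside those of the panel and are not read as a result about the family. The median log2 difference of the 17 members, labelled PD-L1 minus labelled empty plasmid, was -0.06, and that of all tested genes was -0.12. As this is bulk RNA, fewer cells of a type and less RNA per cell cannot be told apart. With 3 against 3 samples an exact permutation test cannot give a p under 0.1, so the p-values quoted for single genes are those of limma.

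**Figure D1:**
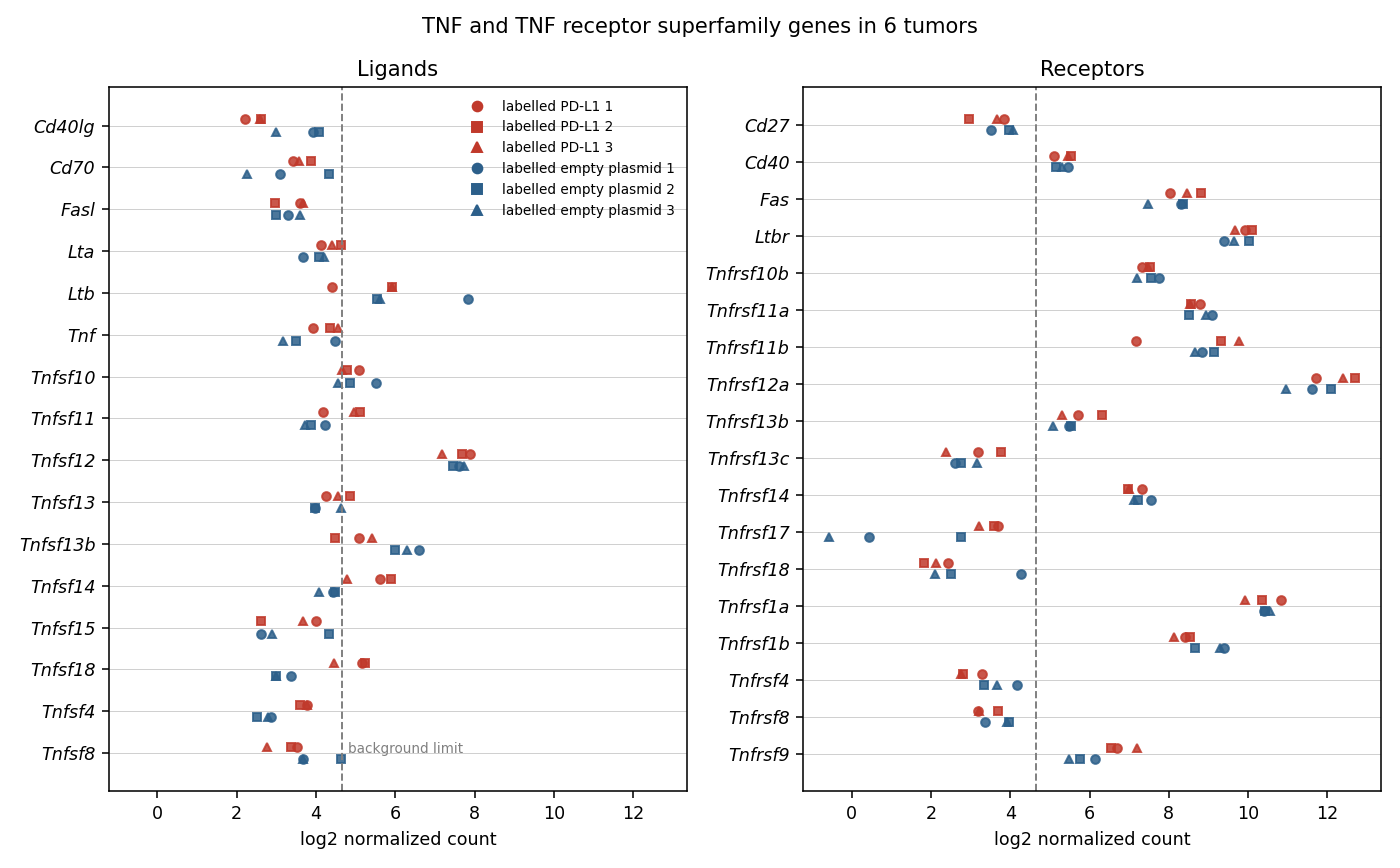
Log2 normalized count (horizontal axis) of the 34 members in each of the 6 tumors, ligands on the left and receptors on the right, in alphabetical order. Red symbols are the samples labelled PD-L1, blue symbols those labelled empty plasmid, the shape gives the replicate number, and the dashed line is the background limit of 4.66; 12 receptors but 1 ligand lie at or above it in all 6 samples. Levels of different genes come from different probes and are not compared.

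Most ligands had means under the background limit, while most receptors had means over it. The limit was reached by the mean of 5 of 16 ligands (Ltb, Tnfsf10, Tnfsf12, Tnfsf13b and Tnfsf14) and of 12 of 18 receptors. In every sample separately, 12 receptors stood at or above the limit but only 1 ligand, Tnfsf12, did so, and 14 of the 34 members lay under it in all 6 samples. Several of the best-known ligands are among those: Tnf itself, Lta, Fasl, Cd40lg, Cd70 and Tnfsf4. No member was highest in replicates 2 or 3 labelled empty plasmid among the 17 tested, whereas 7 had their highest value in replicate 1 labelled empty plasmid and 6 in replicate 2 labelled PD-L1.

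**Figure D2:**
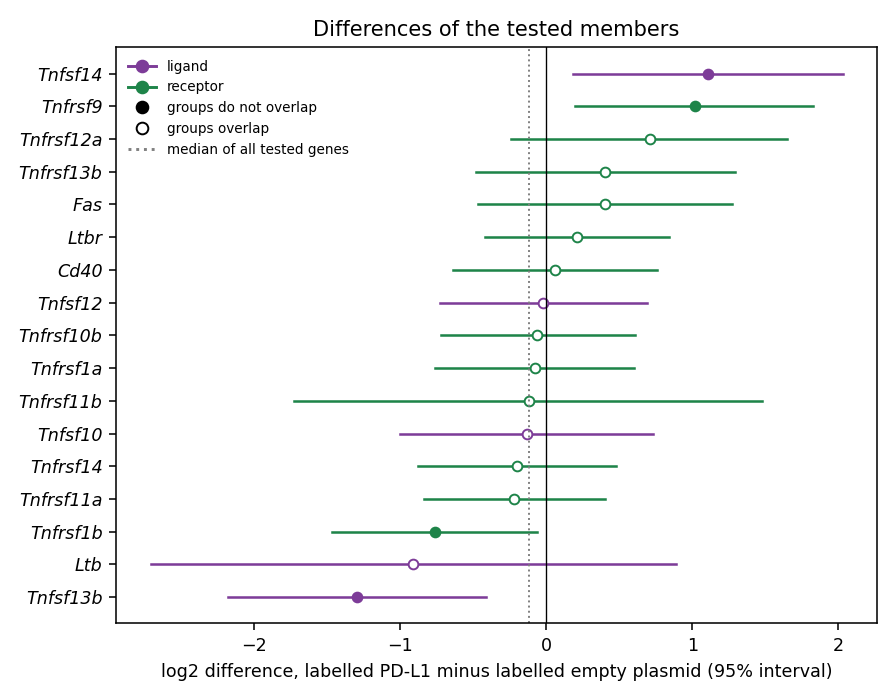
Log2 difference of the 17 tested members, labelled PD-L1 minus labelled empty plasmid, with the 95% interval of limma (n = 3 per group). Purple marks ligands, green receptors, filled points members whose groups did not overlap, and the dotted line the median of all tested genes at -0.12; the intervals of Tnfsf14, Tnfrsf9, Tnfrsf1b and Tnfsf13b exclude 0 before adjustment.

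The B cell survival branch held the member with the smallest p among the 17 tested. Tnfsf13b, which keeps mature B cells alive and is made mainly by myeloid and stromal cells, stood at 5.08, 4.48 and 5.42 in tumors labelled PD-L1 and at 6.59, 5.98 and 6.28 in tumors labelled empty plasmid. All 3 samples of the first group lay below all 3 of the second, and 1 of them was under the background limit. The recovered counts were 45, 26 and 51 against 162, 57 and 150. Means were 4.99 ± 0.48 with the PD-L1 label and 6.29 ± 0.31 without it (SD, n = 3 each). Tumors labelled PD-L1 were thus 2.45-fold lower, a difference of -1.30 ± 0.37 (SE; 95% interval -2.18 to -0.41; adjusted p = 0.251, limma). In 16 alternative settings the difference ranged from -1.72 to -1.04 and the adjusted p from 0.17 to 0.745. Tnfsf13, the related ligand APRIL, had a mean under the limit, with 4.24, 4.86 and 4.56 in the samples labelled PD-L1 and 3.97, 3.97 and 4.62 in the others.

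The receptors of these ligands overlapped between the groups or lay near background. Tnfrsf13b, the receptor TACI of B cells and plasma cells, stood at 5.71, 6.31 and 5.30 in tumors labelled PD-L1 and at 5.49, 5.54 and 5.08 in the others. The groups overlapped, and the difference was 0.40 ± 0.37 (SE, n = 3 per group; adjusted p = 0.621, limma), or -0.02 when samples were scaled to the positive control probes. Tnfrsf13c, the BAFF receptor of B cells, lay between 2.37 and 3.78 and never above the highest negative control of its sample. Tnfrsf17, the plasma cell receptor BCMA, was read with 17, 14 and 11 counts in tumors labelled PD-L1 and with 2, 6 and 1 counts in the others. Its groups did not overlap, but all 6 values lay under the highest negative control of their sample. Of 10 B cell marker genes 7 lay under the limit, among them Ms4a1, which reached 106 counts in replicate 2 labelled PD-L1 and 13 to 21 counts in the other 5 samples. Of the 3 tested 2 were lower with the PD-L1 label and 0 passed. Blnk, an adaptor of the B cell receptor, stood at 6.96, 6.58 and 7.36 in tumors labelled PD-L1 and at 8.54, 7.66 and 8.16 in the others. It did not overlap, with a difference of -1.16 ± 0.36 (SE, n = 3 per group; adjusted p = 0.256, limma). The summed normalized counts of the list ran from 346 to 718 in the samples labelled PD-L1 and from 467 to 700 in the others, and their part in the values of these members was not tested.

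Promoters are shown for the 4 tested members whose groups did not overlap, since these are the members the comparison turns on. They come from RefSeq on GRCm38.p6 and run from 250 bases before to 50 bases after the gene's start, 5′ to 3′ on the gene's strand. Capitals mark matches, on either strand, to 4 motifs: for NF-kappaB GGG and TTCC with NNN between them, for AP-1 TGANTCA, for the interferon response element ISRE GAAA and GAAA with NN between them, and for the STAT site GAS TTC and GAA with NNN between them, where N is any base. Both Tnfsf13b and Tnfrsf9 have 2 listed starts. The windows with more matches are printed. The first window of Tnfrsf9, not printed, held no match. That of Tnfsf13b overlaps the printed one and held only the AP-1 match that is marked there.
Tnfsf13b (second listed start), chr8:10006383-10006682, plus strand: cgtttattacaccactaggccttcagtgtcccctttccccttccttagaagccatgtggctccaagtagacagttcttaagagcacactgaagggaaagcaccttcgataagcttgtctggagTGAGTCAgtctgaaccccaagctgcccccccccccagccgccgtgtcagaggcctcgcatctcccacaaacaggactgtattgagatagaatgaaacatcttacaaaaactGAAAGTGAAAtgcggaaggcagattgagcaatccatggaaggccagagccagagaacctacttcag
Tnfrsf1b, chr4:145246821-145247120, minus strand: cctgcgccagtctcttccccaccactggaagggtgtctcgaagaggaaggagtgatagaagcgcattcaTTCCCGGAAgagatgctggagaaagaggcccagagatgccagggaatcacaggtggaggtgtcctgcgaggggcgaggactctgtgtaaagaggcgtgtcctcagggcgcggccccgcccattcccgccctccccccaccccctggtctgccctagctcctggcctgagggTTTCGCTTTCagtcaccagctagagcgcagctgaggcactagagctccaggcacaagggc
Tnfsf14, chr17:57194132-57194431, minus strand: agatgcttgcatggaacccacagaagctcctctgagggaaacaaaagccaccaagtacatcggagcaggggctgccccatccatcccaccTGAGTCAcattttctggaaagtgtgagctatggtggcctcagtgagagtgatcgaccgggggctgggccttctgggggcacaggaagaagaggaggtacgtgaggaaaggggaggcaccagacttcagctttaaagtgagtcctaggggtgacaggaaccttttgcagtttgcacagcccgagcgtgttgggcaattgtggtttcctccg
Tnfrsf9 (second listed start), chr4:150927749-150928048, plus strand: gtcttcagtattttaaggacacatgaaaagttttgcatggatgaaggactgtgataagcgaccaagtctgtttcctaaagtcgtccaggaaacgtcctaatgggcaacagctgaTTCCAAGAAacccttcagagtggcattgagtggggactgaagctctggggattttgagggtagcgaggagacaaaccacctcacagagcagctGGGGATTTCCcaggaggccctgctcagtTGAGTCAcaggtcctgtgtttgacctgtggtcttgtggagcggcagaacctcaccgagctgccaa
The printed Tnfsf13b window held an AP-1 and an ISRE match, that of Tnfrsf1b an ISRE and a GAS match, that of Tnfsf14 an AP-1 match and that of Tnfrsf9 one each for NF-kappaB, AP-1 and GAS. No 2 matches overlapped. Among all 32851 promoter windows of the same 300 bases, 5.56% held the NF-kappaB motif, 7.81% AP-1, 3.44% ISRE and 8.30% GAS. Of 29 windows listed for 27 of the members, 2 held the NF-kappaB motif, 7 AP-1, 4 ISRE and 7 GAS. The 7 AP-1 windows include both of Tnfsf13b, which share the same site. These matches are descriptions of letters and not of binding.

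In the TNF and lymphotoxin branch a receptor and a ligand separated the groups in opposite directions. Tnfrsf1b, the TNF receptor of leukocytes and endothelium that lacks a death domain, stood at 8.41, 8.53 and 8.12 in tumors labelled PD-L1 and at 9.40, 8.67 and 9.29 in the others. All samples labelled PD-L1 were lower, and the nearest samples across the groups were both replicate 2. The difference was -0.76 ± 0.29 (SE, n = 3 per group) or 1.70-fold (95% interval -1.47 to -0.06; limma adjusted p = 0.291). In 16 alternative settings it ranged from -1.22, with the hepatocyte mean as a covariate, to -0.61, when centred on sample medians. The unadjusted p of limma ranged from 0.0113 to 0.144 and the adjusted p from 0.233 to 0.79. Tnfrsf1a, the widely expressed death domain receptor of TNF, stood at 10.83, 10.36 and 9.93 in the samples labelled PD-L1 and at 10.39, 10.43 and 10.54 in the others. Its groups overlapped, with a difference of -0.08 and a 95% interval from -0.76 to 0.60.

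Tnfsf14, a ligand of activated T cells and myeloid cells, stood at 5.61, 5.90 and 4.79 in tumors labelled PD-L1 and at 4.43, 4.48 and 4.07 in the others. All samples labelled PD-L1 were above the background limit and all samples labelled empty plasmid below it. The gene was thus tested only through the group in which it was higher. The difference was 1.11 ± 0.39 (SE, n = 3 per group; 95% interval 0.18 to 2.03; adjusted p = 0.264, limma). Replicates 1 and 3 labelled empty plasmid still exceeded every negative control of their own sample, and replicate 2 did not. With the limit taken as the level of the lower group, the mean of the tumors labelled PD-L1 was 1.71-fold higher. Subtracting the negative controls made the log2 difference 1.69, scaling to the positive controls 0.68 and adding the hepatocyte mean as a covariate 0.63. Both receptors of LIGHT overlapped between the groups. Tnfrsf14, the receptor HVEM, differed by -0.20 ± 0.28, and Ltbr, the lymphotoxin beta receptor of stromal and epithelial cells, by 0.21 ± 0.26 (SE, n = 3 per group; adjusted p = 0.746 and 0.711, limma), or by -0.22 for Ltbr when scaled to the positive controls.

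Lymphotoxin and TNF transcripts were sparse. Ltb, the membrane anchor of the lymphotoxin heterotrimer, stood at 4.40, 5.92 and 5.91 in tumors labelled PD-L1 and at 7.82, 5.54 and 5.60 in tumors labelled empty plasmid. A single sample, replicate 1 labelled empty plasmid with 379 counts, stood apart from the others, which held 28 to 93 counts. The difference was -0.91 ± 0.75 (SE, n = 3 per group; adjusted p = 0.585, limma), and -0.16 without that sample. The 3 tested T cell genes, Cd3d, Cd3g and Lck, also had their highest mean there, 7.06, against 4.53 to 5.89 in the other samples, and their part in the value was not tested. Tnf, with 20, 24 and 28 counts against 37, 10 and 17, and Lta, with 23, 29 and 25 against 21, 15 and 35, were under the limit in all samples and overlapped.

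Among the death ligands and their receptors no member separated the groups. Tnfrsf12a, the receptor Fn14 of the ligand TWEAK, which injured and proliferating epithelial cells express, stood at 11.71, 12.69 and 12.39 in tumors labelled PD-L1 and at 11.61, 12.10 and 10.96 in the others. Only replicate 1 labelled PD-L1 overlapped with the other group, lying below replicate 2 labelled empty plasmid. The difference was 0.71 ± 0.39 (SE, n = 3 per group; 95% interval -0.24 to 1.65; adjusted p = 0.397, limma). Its ligand Tnfsf12 differed by -0.02, with a 95% interval from -0.73 to 0.69. Fas, the receptor of Fas ligand, stood at 8.03, 8.82 and 8.47 against 8.30, 8.35 and 7.48, a difference of 0.40 ± 0.36, or -0.03 when scaled to the positive controls. Fasl, the ligand that cytotoxic lymphocytes use to kill, held 7 to 23 counts in any sample. Tnfsf10, the death ligand TRAIL, lay close to the limit with 4.55 to 5.50, and its mouse death receptor Tnfrsf10b differed by -0.06 (95% interval -0.72 to 0.61). Tnfsf15, the ligand TL1A of endothelial and myeloid cells, stayed under the limit with 7 to 21 counts.

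The costimulatory receptor Tnfrsf9 was higher in the tumors labelled PD-L1 as deposited, without passing the test. It is induced on T cells and natural killer cells after activation and is also found on some myeloid and endothelial cells. Its values were 6.69, 6.54 and 7.19 in tumors labelled PD-L1 and 6.14, 5.77 and 5.47 in the others, or 138, 109 and 175 counts against 118, 49 and 85. All samples labelled PD-L1 were above all others in the deposited scaling, but not when scaled to the positive controls. The difference was 1.02 ± 0.34 (SE, n = 3 per group) or 2.02-fold (95% interval 0.20 to 1.83; limma adjusted p = 0.256). It was 0.59 when samples were scaled to the positive controls (unadjusted p = 0.492, limma), and 0.82 to 1.19 when each sample was left out in turn. Of 12 T cell markers 9 lay under the limit, Cd3e, Cd4 and Cd8a among them, and 0 of the 3 tested passed. Cd3d and Lck differed by -1.05 ± 0.46 and -0.95 ± 0.42 with no overlap (adjusted p = 0.304 and 0.307, limma), and Cd3g overlapped, with a difference of -1.54 ± 0.78. Of 4 tested natural killer markers 3 were lower with the PD-L1 label and 0 passed, with a median difference of -0.63. Klrk1, the activating receptor NKG2D, differed by -1.20 ± 0.46 with overlap (adjusted p = 0.291, limma). The natural killer list summed to 173 to 449 normalized counts in the samples labelled PD-L1 and 183 to 409 in the others. The part of either cell type in the Tnfrsf9 values was not tested.

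Cd40, the receptor through which helper T cells activate B cells and dendritic cells, lay in a narrow range. It stood at 5.11, 5.53 and 5.45 in tumors labelled PD-L1 and at 5.45, 5.15 and 5.31 in the others, a difference of 0.06 with a 95% interval from -0.64 to 0.76. The other 9 costimulatory members, 5 ligands and 4 receptors, had means under the limit. Among them Tnfsf18, the ligand of the T cell receptor GITR, stood out and was chosen after its values were seen. It was read at 5.17, 5.23 and 4.45 in tumors labelled PD-L1 and at 3.36, 2.98 and 2.99 in the others, or 48, 44 and 26 counts against 17, 7 and 15. The groups did not overlap, and 2 samples labelled PD-L1 passed the limit while no other sample did. With the limit taken as the level of the lower group, the difference of the means was 1.22-fold. When all 750 genes were tested the difference was 1.84 ± 0.36 (SE, n = 3 per group; adjusted p = 0.198, limma), in a fit in which 0.0% of genes passed and 15.9% had an unadjusted p under 0.05.

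The remaining costimulatory members held 4 to 32 counts, where single negative control probes held up to 25. Tnfsf4, the ligand of OX40, stood at 3.77, 3.59 and 3.76 in the samples labelled PD-L1 and at 2.87, 2.51 and 2.79 in the others, with 14 to 18 counts against 5 to 13. Its groups did not overlap, but no value exceeded the highest negative control of its sample. Its receptor Tnfrsf4 ran the other way, with 13, 8 and 8 counts against 30, 9 and 24. Cd40lg, the CD40 ligand of helper T cells, had 6, 7 and 7 counts against 25, 15 and 15, and Tnfsf8, the ligand of CD30, had 15, 12 and 8 against 21, 22 and 24. In all, 6 members under the limit had groups that did not overlap: Tnfsf18, Tnfsf4 and Tnfrsf17 with the samples labelled PD-L1 higher, and Cd40lg, Tnfrsf4 and Tnfsf8 with them lower. This compares with 20.1% of the 209 genes under the limit. Tnfrsf18, the receptor GITR, held 32 counts in replicate 1 labelled empty plasmid and 4 to 8 elsewhere. Cd27, Cd70 and Tnfrsf8 overlapped, with 9 to 32 counts in any sample.

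The RANK branch, known for osteoclast formation, was represented by a ligand near background and 2 receptors above it. Tnfsf11, the ligand RANKL, stood at 4.18, 5.10 and 4.96 in tumors labelled PD-L1 and at 4.22, 3.86 and 3.71 in the others, and its groups overlapped through replicate 1 of each. Tnfrsf11a, the receptor RANK, differed by -0.22 ± 0.26 (SE, n = 3 per group; adjusted p = 0.692, limma). Tnfrsf11b, the soluble decoy osteoprotegerin, stood at 7.18, 9.32 and 9.78 in the samples labelled PD-L1 and at 8.83, 9.15 and 8.66 in the others. The sign of its difference was not stable. It was -0.12 with all samples, 0.67 without the low replicate 1 labelled PD-L1 and 0.01 without replicate 2 labelled empty plasmid. Replicate 1 labelled PD-L1 also had the highest Tnfrsf1a and Tnfsf12.

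Some members lie next to each other on the mouse assembly GRCm38.p6, with no protein-coding gene between them. The neighbours Tnfsf4 and Tnfsf18 both had groups that did not overlap, with higher values under the PD-L1 label, while Fasl, next to Tnfsf18, overlapped. All of these have means under the limit, where the groups of 20.1% of genes did not overlap. No Tnfsf4 value exceeded the highest negative control of its sample. In the pairs of Tnfsf14 with Cd70, Tnfrsf1b with Tnfrsf8, Tnfsf8 with Tnfsf15 and Tnfrsf4 with Tnfrsf18, the first named did not overlap and the other did. Both Tnfsf13 and Tnfsf12 overlapped, as did all of the cluster of Ltb, Tnf and Lta.

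Downstream genes were read from 3 lists chosen with earlier results of these data known. Of 14 tested adaptor and death signalling genes 0 passed and the median difference was 0.03. At an unadjusted p under 0.05 there were 3 of 14, each lower with the PD-L1 label, against 17.0% of all tested genes (9.8% lower), and no result about the list is read from this. Traf3, an adaptor that restrains noncanonical NF-kappaB signalling below receptors such as CD40 and the BAFF receptor, differed by -1.23 ± 0.36 (SE, n = 3 per group; adjusted p = 0.251, limma). Its values of 7.53, 6.80 and 6.56 all lay below 8.53, 8.20 and 7.86. Map3k5, the stress kinase ASK1, differed by -1.12 ± 0.29 and Jun, a subunit of AP-1, by -0.80 ± 0.22, both with no overlap.

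Of 12 NF-kappaB factors and regulators 0 passed, 0 had an unadjusted p under 0.05, and the median difference was -0.09. Bcl10, an adaptor on the way from antigen receptors to NF-kappaB, differed by 0.53 ± 0.24 with no overlap (adjusted p = 0.322, limma). Tnfaip3, the inhibitor A20 that TNF induces, differed by -0.76 ± 0.42, Ikbkg by -0.43 ± 0.39 and Rela by -0.28 ± 0.31 (SE, n = 3 per group). Of 15 measured TNF and lymphotoxin target genes 7 lay under the limit, among them Il6, Sele and Ccl20. Of the 8 tested 0 passed and the median difference was -0.35. Ptgs2, the inducible cyclooxygenase, differed by 1.22 ± 0.48 (adjusted p = 0.291), with 9.28 in replicate 2 labelled PD-L1 within the range of the other group. The neutrophil attractant Cxcl1 differed by -1.16 ± 0.50, the adhesion molecule gene Icam1 by -0.46 ± 0.32 and the monocyte attractant Ccl2 by 0.79 ± 0.61, all with overlap.

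No marker of another cell type passed the test. Signs are read beside the 59.9% of all tested genes that were lower with the PD-L1 label. Of 13 tested macrophage and monocyte markers 11 were higher with the PD-L1 label, with summed normalized counts of 74097 to 184405 against 51926 to 69506. Lyz2 alone, at 15.43 to 16.99 against 14.73 to 15.26, made up a large part of these sums. Mrc1 and Lyz2 differed by 2.53 ± 0.53 and 1.41 ± 0.48 (SE, n = 3 per group; adjusted p = 0.225 and 0.264, limma). All 9 endothelial markers were lower, with a median of -0.57, and their sums overlapped at 4118 to 9552 against 6431 to 8380. The groups did not overlap for 4 of the 9, against 18.3% of all tested genes (9.8% lower), and no result about the list is read from this. All 18 hepatocyte markers were lower, 0 of them with no overlap, with a median of -3.61. At an unadjusted p under 0.05 (limma) there were 10 of 18, each lower, against 17.0% of all tested genes (9.8% lower). Their sums overlapped at 99525 to 125654 against 95282 to 323694 but did not follow the list means. Replicate 2 labelled PD-L1 had a mean of 5.40 and a sum of 113074. Replicate 1 labelled empty plasmid had a mean of 8.31 and a sum of 95282. Neutrophil markers were mixed, with S100a8 at 1.67 ± 0.48 and Lcn2 at -3.67 (95% interval -7.26 to -0.08), and of 7 fibroblast markers, all with overlap, 4 were higher, with a median of 0.20. The 5 measured dendritic cell markers were all under the limit. Of 4 tumor epithelium markers 3 were higher, and Msln differed by 3.02 ± 0.48 (adjusted p = 0.103, limma), while Muc1 was high in replicate 1 labelled PD-L1 alone, at 9.74. The part of these cells in Tnfsf13b, Tnfrsf1b, Tnfrsf9 and Tnfsf14 was not tested. The fits with the hepatocyte mean as a covariate cannot separate it from the label, because that mean itself was mostly lower with the PD-L1 label.

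**Figure D3:**
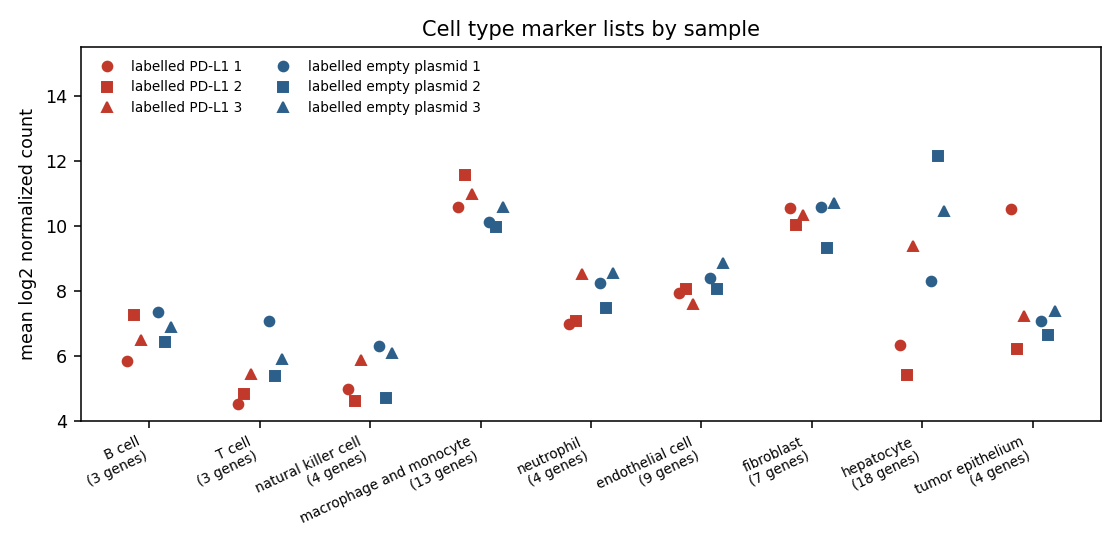
Mean log2 normalized count (vertical axis) of the tested genes of 9 cell type marker lists in each sample, with the number of genes under each name. Red is labelled PD-L1, blue labelled empty plasmid and the shape the replicate number; the hepatocyte list spans 5.40 to 12.17 and the T cell list is highest in replicate 1 labelled empty plasmid at 7.06.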

How the data were processed

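Of each of the 6 tumors, grouped by title, the deposited table gives log2 values that the authors had already scaled sample by sample; neither the basis of that scaling nor the counting software is given in the sources used here. Each linear value was a whole number times a sample factor (0.519 to 1.11) plus 0.158, for 100% of values within 0.02, and these whole numbers are the recovered counts. Per the file headers the table covers 750 endogenous and 20 reference genes with 6 positive and 8 negative control probes. A further table repeats the 770 genes and was not needed.

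A gene was compared where its mean reached 4.66, which left 541, using limma 3.58.1 (R 4.3.3; lmFit, eBayes with a trend, group as sole term) and Benjamini-Hochberg adjustment over all 541 at 0.05. This fit was tested on simulated data. The members and lists were chosen with earlier results of these data known. Described in full are members without overlap, the ligand and receptor of smallest p in each branch with their partners, up to 4 genes of each pathway list and 2 of each marker list, some of which are not reported here; the remaining members are given by counts and ranges. All 34 members matched RefSeq's GRCm38.p6 table by accession, with the same symbols. The files name no build, and the promoter coordinates are RefSeq's. Alternatives concerned the scaling, the background limit, the trend, subtraction of negative controls, an added constant, voom on recovered counts, a replicate block, a hepatocyte covariate and each sample left out. Fits of members under the limit with other settings were added once the data had been seen. Plots were made with matplotlib 3.10.9.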

Additional observations from a re-analysis of the deposited data

How the results depend on the processing

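No member passed an adjusted p of 0.05 in any setting, and the smallest was 0.0869, for Tnfrsf17 with all genes tested and 1 sample left out. Tnfsf13b, Tnfrsf9, Tnfsf14, Tnfrsf1b, Tnfrsf12a, Ltb, Tnfrsf11a and Tnfrsf14 kept their direction in all 16 alternatives. The median difference of all tested genes was -0.12 as deposited, -0.09 scaled to the reference genes, 0.04 centred on sample medians and -0.54 scaled to the positive controls, and of genes with an unadjusted p under 0.05 the higher ones made up 42.4%, 46.7%, 63.1% and 16.4%. Over all tested genes 1 passed when scaled to the reference genes and 29 when scaled to the positive controls, against 0. The count at an unadjusted p under 0.05 was 92, but 55 when scaled to the positive controls, 28 with the hepatocyte covariate and 38 to 92 when samples were left out in turn (38 without replicate 2 labelled PD-L1, 53 without replicate 3 labelled empty plasmid). For the members this count was 4, but 0 when scaled to the positive controls, 8 with no background limit, 2 with the replicate block (Tnfsf13b and Tnfsf14), 1 with the hepatocyte covariate (Tnfrsf1b) and 1 to 4 without single samples; it was 1 without replicate 3 labelled empty plasmid and 2 without any one of the samples labelled PD-L1. The count of members with no overlap was 4, but 0 when scaled to the positive controls, 10 with no limit and 4 to 9 without single samples, where fewer samples separate more easily. The cause of the other shifts was not tested.

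Small differences changed sign. Scaled to the positive controls, Tnfrsf13b was -0.02, Ltbr -0.22, Fas -0.03 and Cd40 -0.37. Centred on medians, Tnfrsf11b was 0.03, Tnfrsf1a 0.08, Tnfsf10 0.02, Tnfsf12 0.13 and Tnfrsf10b 0.10, and Tnfsf12 was 0.01 when scaled to the reference genes. With the hepatocyte covariate Tnfrsf11b was 0.52 and Cd40 -0.03. Without single samples the ranges that crossed 0 were -0.63 to 0.67 for Tnfrsf11b, -0.31 to 0.15 for Tnfrsf1a, -0.34 to 0.13 for Tnfsf10, -0.17 to 0.18 for Tnfsf12, -0.21 to 0.07 for Tnfrsf10b and -0.02 to 0.18 for Cd40, and, with all genes tested, -0.09 to 0.94 for Cd70, -0.03 to 0.35 for Fasl, -0.07 to 0.64 for Tnfrsf13c and -0.19 to 0.67 for Tnfsf15 (-0.14 without replicate 1 labelled PD-L1, -0.05 without replicate 3 labelled empty plasmid). The correlation across genes of same-numbered samples' deviations from their group means was 0.274, -0.203 and -0.126. Between samples of other numbers it ran from -0.393 to 0.459. Such deviations cancel within a group of 3, so these values cannot decide whether the replicate numbers pair the samples. Depth limits the members read with 25 counts or fewer, a level that single negative control probes also reached.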
